A study of Mus musculus with 8 samples.

Results

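TPMR1 and TPMCa are 2 mouse models of endometrial cancer that alter the phosphoinositide 3-kinase (PI3K) in different ways on the same Myc-overexpressing background, and their transcriptomes were compared gene by gene. The comparison rests on 4 of the 8 bulk RNA libraries of the series, 2 of TPMR1 and 2 of TPMCa, and the genes described are those for which both libraries of one model lay above both of the other. Every tumor of both models came from uterus organoids of CAG-Cas9-EGFP female mice, which had received an sgRNA against Trp53 and a Myc cDNA together with a further engineered edit, and which were placed in the left uterus of BALB/cA-nu recipients. TPMCa organoids also received a Pik3ca E545K cDNA by retrovirus, and TPMR1 organoids an sgRNA against Pik3r1. No isolation of a clone from the virus-treated organoids is described, a nude host lacks mature T cells of thymic origin, and the tumor libraries hold RNA of host and graft alike. The sample labels call the material organoids of the nude mouse strain, whereas the methods of the study describe tumor tissue collected about 2 months after transplantation. The other 4 libraries, 2 of TPM (the shared background without an alteration of Pik3ca or Pik3r1) and 2 of TPK (a model without the Myc cDNA that carries another oncogene), were used for the estimate of the spread and as levels beside the comparison.

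PI3K of class IA is a pair of a catalytic and a regulatory subunit. Pik3ca encodes the catalytic subunit p110-alpha, which makes the membrane lipid that recruits the kinase AKT, and Pik3r1 encodes p85-alpha and its shorter forms, which stabilize the catalytic subunit and hold it inactive until a receptor is engaged. A helical-domain change such as E545K loosens that hold from the catalytic side, whereas loss of the regulatory subunit removes it from the other, and both are frequent in endometrial carcinoma. Below AKT, the pathway restrains FOXO transcription factors and activates the growth kinase mTORC1.

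The sequences that define the 2 alterations are shown first. The Pik3r1 sgRNA has 19 bases and was searched in the annotated Pik3r1 transcripts alone, not in the rest of the genome. Its match there lies at chr13:101690544-101690562 of GRCm38 (mm10) on the plus strand, whereas Pik3r1 lies on the minus strand. With the GENCODE M21 annotation the site falls in the coding sequence of exon 8 of 16 of the transcript of 723 codons, with the cut at codon 314, and of exon 2 of 10 of the transcript of 453 codons, with the cut at codon 44. It is present in 5 of the 7 annotated transcripts, so that long and short forms of the regulatory subunit share it. The Pik3ca change lies in exon 9 of 20 of the transcript of 1067 codons, at chr3:32448048-32448050 on the plus strand, where G1633A, counted from the first coding base, turns codon GAA into AAA and gives E545K, counted from the first residue. Below, capitals mark the protospacer-adjacent motif of the guide and the codon of residue 545 in the unchanged mouse sequence.
Pik3r1 sgRNA and its motif: ttggctacagtagtgggctTGG
Pik3ca around residue 545: tctgaaatcactGAAcaagagaaagac

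Total counts were 26943611 and 16598597 in the TPMR1 libraries and 16380374 and 16675076 in the TPMCa libraries. Levels are given as CPM, counts scaled to a common library size with the TMM factors of edgeR, and a floor of 3 counts equaled between 0.116 and 0.198 CPM across the 8 libraries, which covers counting error only. The TPMR1 replicates stood apart from each other: 2701 genes differed over 4-fold between them, against 1293 between the TPMCa replicates, 972 between those of TPK and 749 between those of TPM. Of the 2701 genes, 1789 were higher in replicate 2 of TPMR1 and 912 in replicate 1. Levels below are therefore given per library, and many of the medians and counts that 1 library moves widely are also given without it. The label of an epithelial cancer was also checked. The 31 general epithelial genes summed to 120 and 83.0 CPM in TPMR1 and 143 and 66.8 CPM in TPMCa, against 10577 and 6944 CPM in TPM and 8266 and 11855 CPM in TPK, so that the defining markers of epithelium were close to absent from all 4 compared libraries. Of those markers, Epcam stood at 0.813 and 0.389 CPM in TPMR1 and 5.0 and 3.12 CPM in TPMCa, and Cdh1 is described with the other epithelial genes. The study itself reports well-differentiated glands on stained sections of TPMCa and TPMR1 tumors. The difference between that tissue evidence and these RNA levels was not tested.

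After the filter on low counts 15875 genes were tested, and TPMR1 and TPMCa separated them widely in size but not in the adjusted test. No gene passed an adjusted p of 0.05 in the quasi-likelihood test of edgeR (0%), whereas 1867 genes (11.8%) had an unadjusted p below 0.05 and the Wald test of DESeq2 called 771 genes at an adjusted p below 0.05. Of the 1867 genes, 872 (5.49%) were higher in TPMR1 and 995 (6.27%) in TPMCa, and 1670 (10.5%) also had a log2 fold change beyond 1, 736 (4.64%) and 934 (5.88%) of them in the same order. Below, each log2 fold change is TPMR1 minus TPMCa with its standard error and the adjusted p of edgeR, and counts of genes with a p below 0.05 use the unadjusted p. The 2 libraries of each model came from 2 mice per the study, and p measures only the spread between libraries of 1 model. That spread was estimated over all 8 libraries, those of TPM and TPK included. The libraries did not overlap for 5796 genes (36.5%), with both TPMR1 libraries higher for 2980 (18.8%) and both TPMCa libraries higher for 2816 (17.7%). Counts of list members without overlap are to be read beside these 2 shares. List counts with a p below 0.05 stand beside the 5.49% and 6.27% of all genes. A gap of at least 1 log2 unit, the lowest library of the higher model minus the highest of the lower one, was present for 951 genes (5.99%), 316 of them higher in TPMR1 (1.99%) and 635 higher in TPMCa (4%). Without replicate 2 of TPMR1 the number of genes with such a gap was 4778, and between 1672 and 2317 without any 1 of the other libraries. Because the genes named for their gap were chosen on these libraries, the p beside each is a description.

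**Figure D1:**
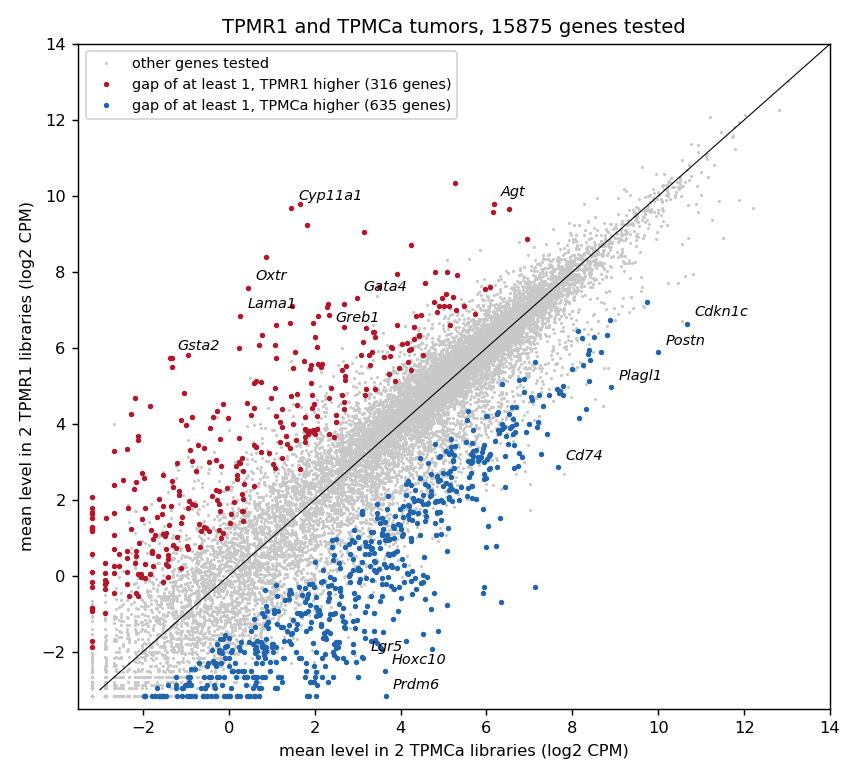
Mean level of each of the 15875 genes tested in the 2 TPMCa libraries (x axis, log2 CPM) and the 2 TPMR1 libraries (y axis, log2 CPM), with the line of equal level. Genes with a gap of at least 1 log2 unit are colored, 316 with TPMR1 higher and 635 with TPMCa higher, and labels name some of the genes described in the text.

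Of the engineered genes, Pik3ca and Trp53 were slightly higher in both TPMCa libraries, whereas Pik3r1 and Myc overlapped. Pik3ca stood at 70.2 and 73.1 CPM in TPMR1 and at 89.9 and 83.3 CPM in TPMCa, and its log2 fold change was -0.27 ± 0.24 (adjusted p = 0.668). The models without the Pik3ca cDNA held 76.6 and 60.9 CPM in TPM and 66.6 and 80.1 CPM in TPK, so that the TPMCa libraries were little above them. Pik3r1 stood at 101 and 51.3 CPM in TPMR1 and at 78.1 and 80.9 CPM in TPMCa (log2 fold change -0.07 ± 0.41, adjusted p = 0.974), and the number of reads does not check whether an edit is present. Myc, which both models overexpress from a cDNA, stood at 606 and 466 CPM in TPMR1 and at 3075 and 324 CPM in TPMCa. The log2 fold change of Myc, -1.66 ± 0.96 (adjusted p = 0.528), turned to 0.70 without replicate 1 of TPMCa, the library at 3075 CPM, and was -2.52 without replicate 2. Trp53, which both models target, stood at 33.2 and 55.1 CPM in TPMR1 and at 78.5 and 70.2 CPM in TPMCa, without overlap (log2 fold change -0.75 ± 0.30, adjusted p = 0.417). The unadjusted p of Trp53 was below 0.05 with all libraries and without replicate 2 of TPMR1, and above it without any 1 of the other 3, where the log2 fold change lay between -0.83 and -0.43. It was also above 0.05 with scaling by library size alone and in a fit of the 4 libraries alone, with log2 fold changes of -0.72 and -0.76.

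The genes with the widest gap in favor of TPMR1 were led by Gsta2, Oxtr and Lama1. Gsta2, which encodes a glutathione transferase, had 117 and 24.5 CPM in TPMR1 and 0.190 and 0.390 CPM in TPMCa, a 244-fold difference of the means and on the log2 scale 7.89 ± 1.65 (adjusted p = 0.364). Oxtr, the oxytocin receptor of uterine muscle and decidua, had 262 and 141 CPM in TPMR1 against 0.380 and 3.67 CPM in TPMCa, and between 1.12 and 8.07 CPM in the TPM and TPK libraries. Lama1, the alpha-1 chain of laminin in basement membranes, had 251 and 52.9 CPM in TPMR1 against 0.823 and 1.45 CPM in TPMCa, a 134-fold difference and on the log2 scale 7.05 ± 0.89 (adjusted p = 0.287). The TPM and TPK libraries held Lama1 between 2.06 and 4.88 CPM, so that TPMR1 stood apart from every other library of the series in both Oxtr and Lama1. Ankrd63, an ankyrin repeat gene, had 52.9 and 12.4 CPM in TPMR1 and 0 and 0.334 CPM in TPMCa. Ptgds, the prostaglandin D2 synthase, had 123 and 16.3 CPM in TPMR1 and 0.127 and 0.557 CPM in TPMCa. Olfr1033, an odorant receptor gene, had 36.2 and 77.8 CPM in TPMR1 and 1.84 and 2.28 CPM in TPMCa. Its unadjusted p was below 0.05 with all libraries, but not without replicate 2 of TPMR1 or either TPMCa replicate, where the log2 fold change lay between 4.13 and 4.95.

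**Figure D2:**
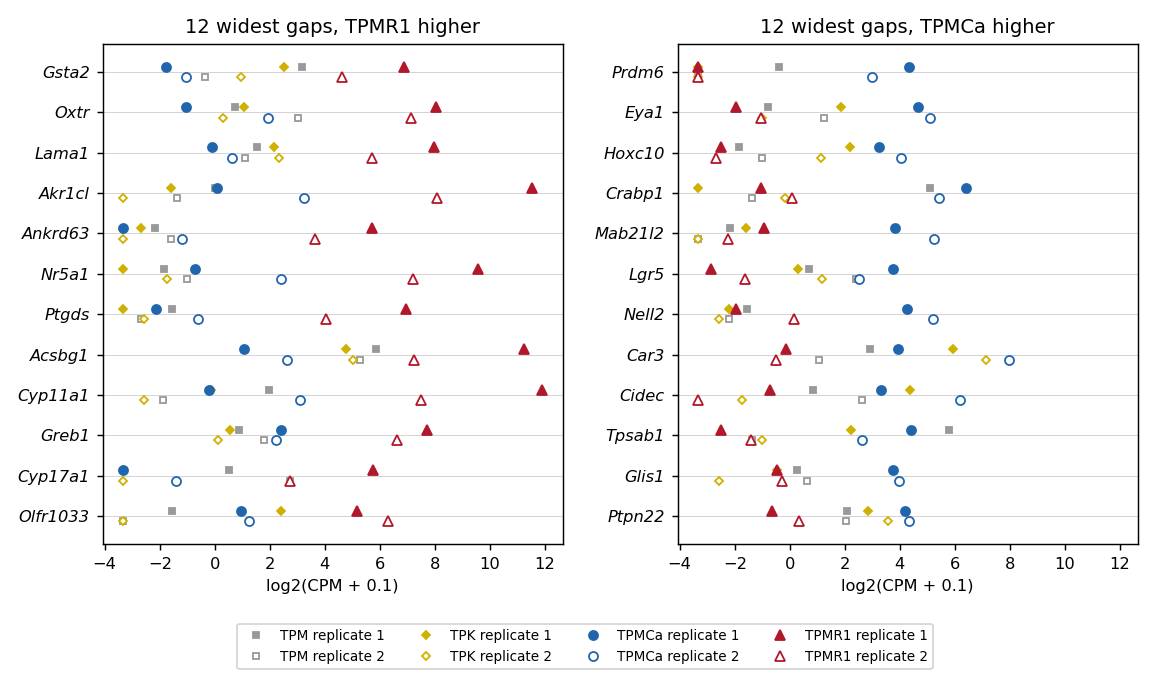
Level of each gene in each library (x axis, log2 of CPM plus 0.1) for the 12 genes with the widest gap in favor of TPMR1 (left) and of TPMCa (right), in order of the gap. Triangles (TPMR1) and circles (TPMCa) lie apart for every gene by construction, whereas the squares of TPM and the diamonds of TPK lie on either side. TPM and TPK had no part in the gap, but entered the choice through the filter, the scaling and the spread behind p.

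The smallest p in favor of TPMR1 belonged to Greb1, an early gene of the estrogen response, at chr12:16670615-16800886. It had 208 and 99.3 CPM in TPMR1 and 5.13 and 4.62 CPM in TPMCa, a 31.5-fold difference and on the log2 scale 4.98 ± 0.54 (adjusted p = 0.287). The TPM and TPK libraries held between 0.989 and 3.37 CPM of Greb1, below every TPMR1 and TPMCa library. Gata4, a zinc finger factor of gonad, heart and endoderm, had 137 and 183 CPM in TPMR1 and 5.32 and 11.3 CPM in TPMCa (log2 fold change 4.27 ± 0.49, adjusted p = 0.287), and it was at 0 in both TPM libraries. Bmp7, a bone morphogenetic protein, had 57.7 and 20.2 CPM in TPMR1 and 1.58 and 1.56 CPM in TPMCa (4.63 ± 0.61, adjusted p = 0.287). In the TPM libraries Bmp7 stood at 43.7 and 46.9 CPM, within the range of TPMR1, so that here the TPMCa libraries were the ones apart. Rph3al, which encodes a regulator of vesicle release, showed the same order, with 23.4 and 13.3 CPM in TPMR1, 1.08 and 0.723 CPM in TPMCa and 14.5 and 15.6 CPM in TPM (4.34 ± 0.56, adjusted p = 0.287). Greb1 shares exon bases with an antisense gene, and reads of overlapping genes cannot be told apart here because the strand setting of the counting is not given. The same holds for the genes named below that share exon bases with another annotated gene, among them Akr1cl, Me1, Mab21l2, Cdkn1c, Plagl1, Mest, Ciita, Csf1r, Irs1, Inppl1, Inpp5j, Akt1s1, Txnip, Cdkn1a, Foxl2 and Hand2.

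Genes of steroid hormone synthesis formed the leading group in TPMR1. Nr5a1 is the nuclear receptor that turns on this program in adrenal cortex and gonad, Star carries cholesterol into the mitochondrion, Cyp11a1 cleaves its side chain with electrons passed on by Fdxr and Fdx1, and Cyp17a1, Hsd3b1 and Cyp21a1 carry the product towards androgens and corticoids. Of 23 genes listed for this program 15 passed the filter on low counts, and 11 of these had both TPMR1 libraries higher and none the reverse, against 18.8% and 17.7% of all genes tested. The filter keeps a gene that is high in 1 model alone, so a member such as Nr5a1 can enter through TPMR1, and the share is a description. The median log2 fold change of the 15 genes was 4.72, against 0.01 over all genes, and 11 members had a p below 0.05. Nr5a1 had 753 and 148 CPM in TPMR1 and 0.507 and 5.23 CPM in TPMCa, and at most 0.400 CPM in TPM and TPK (log2 fold change 7.28 ± 1.44, adjusted p = 0.364). Cyp11a1 had 3768 and 182 CPM in TPMR1 and 0.760 and 8.46 CPM in TPMCa (8.73 ± 2.38, adjusted p = 0.372). Cyp17a1 had 54.2 and 6.61 CPM in TPMR1 and 0 and 0.278 CPM in TPMCa, yet 6.52 CPM in replicate 2 of TPM. Both TPMR1 libraries held this group of transcripts, with replicate 1 far above replicate 2. Fdxr had 626 and 105 CPM in TPMR1 and 25.2 and 30.4 CPM in TPMCa, and Fdx1 had 779 and 56.0 CPM against 23.1 and 24.4 CPM. Star had 468 and 18.5 CPM in TPMR1 and 6.27 and 6.46 CPM in TPMCa (5.25 ± 1.42, adjusted p = 0.372). Hsd3b1 had the replicates in the opposite order, with 35 and 91.1 CPM in TPMR1 and 0 and 2.28 CPM in TPMCa.

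Some steps of the same pathway were present in 1 TPMR1 library alone. Cyp21a1, the 21-hydroxylase, had 2274 CPM in replicate 1 of TPMR1, 0 in replicate 2, and 0 and 0.111 CPM in TPMCa, so that its groups overlapped. Mrap, the partner of the corticotropin receptor, had 286 and 2.61 CPM in TPMR1 and 2.66 and 8.29 CPM in TPMCa. Of the members that did not pass the filter, Hsd3b6 had 1362 counts and Hsd17b3 128 counts in replicate 1 of TPMR1, against at most 2 in any other library, whereas Lhcgr, the receptor of luteinizing hormone, had 130 counts in replicate 2 and 5 in replicate 1. Nr0b1, a repressor that Nr5a1 induces, had 33.7 and 2.67 CPM in TPMR1 against 2 counts over both TPMCa libraries, a ratio of 354 with an exact 95% counting interval from 97.6 to 2924. The summed level of the 15 genes was 9327 and 791 CPM in TPMR1, 237 and 229 CPM in TPMCa, 400 and 287 CPM in TPM and 324 and 695 CPM in TPK, which places replicate 2 of TPMR1 not far above a TPK library. Without replicate 1 of TPMR1 the median log2 fold change of the steroid group was 1.67 and 9 members had a p below 0.05, and without replicate 1 of TPMCa 5 members did. Bulk libraries do not tell a change in the number of cells of a type from a change in RNA per cell, and the part that cells of another tissue may have in these levels was not tested. Hsd3b1 and Hsd3b6 are near copies, as are Cyp21a1 and a pseudogene, Cyp11a1 shares exon bases with a noncoding gene on its own strand, and how shared reads were assigned is not given.

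Genes of the supporting cells of the gonad were mixed. Of 23 such genes 18 passed the filter, 5 (27.8%) had both TPMR1 libraries higher and 2 (11.1%) both TPMCa libraries, and the median log2 fold change was 0.85. Inha, the inhibin alpha subunit, had 15.4 and 64.8 CPM in TPMR1 and 8.68 and 2.78 CPM in TPMCa (2.81 ± 0.82, adjusted p = 0.376), and the estrogen-making Hsd17b1, which is also counted with the steroid genes, had 1.08 and 18.2 CPM against 0.633 and 1.0 CPM. Foxl2, which defines granulosa cells, had 0.310 and 33.1 CPM in TPMR1 and 0.380 and 0.0557 CPM in TPMCa, so that replicate 2 of TPMR1 alone held it. Fshr, the receptor of follicle-stimulating hormone, had 0 counts in all 8 libraries, and Cyp19a1, the aromatase, had 0 counts in TPMR1. The supporting-cell genes summed to 194 and 606 CPM in TPMR1 and 204 and 200 CPM in TPMCa, which overlap. The median of the supporting-cell genes turned to -1.33 without replicate 2 of TPMR1. Among 9 GATA factors and their cofactors, Gata1, known from blood cells and the Sertoli cells of testis, had 5.69 and 0.889 CPM in TPMR1 and 0 in TPMCa, at least 18.4-fold higher against a floor of 3 counts per library. Gata6 had 2.01 and 92.9 CPM in TPMR1 and 17.7 and 31.6 CPM in TPMCa, which overlap, so that Gata4 and Gata6 differed in their pattern. In all, 4 GATA genes had both TPMR1 libraries higher and 1 had both TPMCa libraries higher, with a median log2 fold change of 0.94 that turned to -0.63 without replicate 2 of TPMR1.

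Esr1, the estrogen receptor alpha, was higher in both TPMR1 libraries. It had 142 and 133 CPM in TPMR1 and 18.2 and 56.2 CPM in TPMCa (log2 fold change 1.88 ± 0.59, adjusted p = 0.378). Esr1 in TPK, at 81.7 and 149 CPM, reached the TPMR1 range. Pgr, the progesterone receptor and a classic estrogen target, had 0.310 and 26.8 CPM in TPMR1 and 1.52 and 51.6 CPM in TPMCa, which overlap. Tsc22d3, a glucocorticoid-induced gene, went the other way, with 28.8 and 46.0 CPM in TPMR1 and 143 and 95.2 CPM in TPMCa (-1.67 ± 0.46, adjusted p = 0.376). Over the 18 receptor and response genes tested, 5 had both TPMR1 libraries higher and 5 both TPMCa libraries, with a median log2 fold change of -0.04, and a p below 0.05 was found for 4 and 3 of them. The median of this list was -1.83 without replicate 2 of TPMR1, where 8 members had a p below 0.05 with TPMCa higher, as against 1 without either TPMCa replicate.

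Lipid metabolism and the angiotensin system contained further genes of this kind, again with replicate 1 of TPMR1 far above replicate 2. Acsbg1, an acyl-CoA synthetase of steroid-producing cells and brain, had 2398 and 150 CPM in TPMR1 and 1.96 and 6.01 CPM in TPMCa, between which TPM stood at 57.4 and 38.4 CPM. Akr1cl, an aldo-keto reductase gene, had 2947 and 268 CPM in TPMR1 and 0.95 and 9.35 CPM in TPMCa, and at most 0.903 CPM in TPM and TPK. Me1, the malic enzyme that supplies NADPH, had 2889 and 222 CPM in TPMR1 and 96.0 and 88.2 CPM in TPMCa (4.08 ± 1.08, adjusted p = 0.372). Of 34 cholesterol and fatty acid synthesis genes, 4 had both TPMR1 libraries higher and 2 both TPMCa libraries, shares below the 18.8% and 17.7% of all genes, although the median log2 fold change was 0.87. A p below 0.05 was found for 5 members with TPMR1 higher and for 1 with TPMCa higher, numbers that moved with the library left out. Their summed level was 20178 and 3819 CPM in TPMR1 and 5628 and 4347 CPM in TPMCa. The median of the 34 genes rested on replicate 1 of TPMR1, without which it was -0.17. It was 1.47 without replicate 2 of TPMR1, and 1.26 and 0.84 without replicate 1 and replicate 2 of TPMCa. Agt, the angiotensin precursor, had 3969 and 199 CPM in TPMR1 and 88.6 and 58.8 CPM in TPMCa (4.82 ± 1.41, adjusted p = 0.376), and at most 1.38 CPM in TPM and TPK. Both PI3K models thus stood above TPM and TPK in Agt, and TPMR1 above TPMCa. The receptor Agtr2 had the opposite order, with 2.56 and 1.61 CPM in TPMR1 and 10.3 and 26.6 CPM in TPMCa (-3.14 ± 0.87, adjusted p = 0.376). Of 11 renin-angiotensin genes tested, 2 (18.2%) were higher in both TPMR1 libraries and 4 (36.4%) in both TPMCa libraries. Their median of -0.48 was -1.79 without replicate 2 of TPMR1.

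The genes with the widest gap in favor of TPMCa included several regulators of development. Prdm6, which encodes a repressor known from smooth muscle, had 20.2 and 7.74 CPM in TPMCa and 0 in both TPMR1 libraries, at least 98.8-fold higher against a floor of 3 counts per library. Eya1, a cofactor of homeodomain proteins in organ formation, at chr1:14168954-14310235, had 25 and 34.3 CPM in TPMCa and 0.155 and 0.389 CPM in TPMR1, a 109-fold difference (log2 fold change -6.77 ± 1.39, adjusted p = 0.364). Both genes were low in TPM and TPK, with at most 0.662 CPM of Prdm6 and at most 3.49 CPM of Eya1. Lgr5, the R-spondin receptor that marks stem cells of several epithelia, had 13.2 and 5.68 CPM in TPMCa and 0.0387 and 0.222 CPM in TPMR1, with 1.51 and 5.21 CPM in TPM. Crabp1, a retinoic acid binding protein, had 84.5 and 43.0 CPM in TPMCa and 0.387 and 0.945 CPM in TPMR1, but TPM ranged from 0.286 to 34.3 CPM. Its unadjusted p was below 0.05 with all libraries and not without either TPMR1 replicate or replicate 1 of TPMCa, where the log2 fold change lay between -7.34 and -6.04. Mab21l2, needed in eye and body wall development, had 13.9 and 37.3 CPM in TPMCa and 0.426 and 0.111 CPM in TPMR1. Nell2, a secreted protein of neurons, had 18.8 and 36.3 CPM in TPMCa and 0.155 and 1.0 CPM in TPMR1, and Glis1, a zinc finger factor, 13.2 and 15.6 CPM against 0.620 and 0.723 CPM. The TPM and TPK libraries held at most 0.241 CPM of Nell2 and at most 1.43 CPM of Glis1, so that TPMCa stood apart in both. Sema4a, a semaphorin, differed little between replicates, with 39.2 and 33.6 CPM in TPMCa and 10.1 and 10.8 CPM in TPMR1 (log2 fold change -1.80 ± 0.24, adjusted p = 0.287), and it was higher still in TPM and TPK, from 82.0 to 138 CPM. Ptpn22, a phosphatase of lymphocytes, had 17.9 and 19.9 CPM in TPMCa and 0.542 and 1.17 CPM in TPMR1 (-4.47 ± 0.61, adjusted p = 0.293).

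Hox genes of the C cluster were among them. Hoxc10, which patterns the lumbar region, had 9.25 and 16.3 CPM in TPMCa, with 438 counts against 3 in TPMR1, a ratio of 190 with an exact 95% counting interval from 64.4 to 922 (log2 fold change -7.42 ± 0.92, adjusted p = 0.287). Hoxc9 had 2.91 and 9.91 CPM in TPMCa and 0.387 and 0 CPM in TPMR1, and Hoxc8 had 1.71 and 17.1 CPM against 0.426 and 0.0556 CPM. Of 40 Hox genes 31 passed the filter, and 11 of these had both TPMCa libraries higher, 1 (Hoxb9) both TPMR1 libraries, with a median log2 fold change of -1.28. Of the 11 genes, 6 belong to the C cluster and 5 to the A cluster. Hoxa10 and Hoxa11, which pattern the uterus, overlapped, with 88.7 and 2.33 CPM of Hoxa10 in TPMR1 and 105 and 28.8 CPM in TPMCa. The number of Hox genes with a p below 0.05 was 7, all higher in TPMCa, rising to 14 when replicate 1 of TPMR1 was left out and falling to 1 when replicate 2 of TPMCa was. Hoxc10 and Hoxc5 share exon bases on the same strand in the annotation.

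Cdkn1c, a cyclin-dependent kinase inhibitor expressed from the maternal allele, at chr7:143458339-143461050, had 1175 and 2247 CPM in TPMCa and 106 and 94.2 CPM in TPMR1 (log2 fold change -4.10 ± 0.55, adjusted p = 0.292). The TPM and TPK libraries held between 6.29 and 18.1 CPM of Cdkn1c, so that TPMR1 also stood above them. Plagl1, a zinc finger factor that is also imprinted, had 505 and 452 CPM in TPMCa and 54.1 and 18.0 CPM in TPMR1 (-3.73 ± 0.58, adjusted p = 0.364), and between 15.1 and 27.2 CPM in TPM and TPK. Mest had 177 and 572 CPM in TPMCa and 9.18 and 47.6 CPM in TPMR1 (-3.72 ± 0.92, adjusted p = 0.364), and Gpc3 had 162 and 493 CPM against 4.53 and 68.0 CPM (-3.18 ± 1.36, adjusted p = 0.434). Igf2 and H19, imprinted neighbors expressed from opposite alleles, overlapped between the models: Igf2 had 1090 and 6.12 CPM in TPMCa and 14.4 and 55.6 CPM in TPMR1, and H19 had 1999 and 131 CPM against 25.7 and 432 CPM, so that both were high in replicate 1 of TPMCa alone. Of the 18 oncofetal and pluripotency genes tested, which include these, 5 had both TPMCa libraries higher and 1 both TPMR1 libraries, with a median of -1.46 that turned to 0.41 without replicate 1 of TPMCa. A p below 0.05 was found for 4 of them with TPMCa higher, and for 7 without replicate 2 of TPMR1.

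The group with the most uniform difference was that of MHC class II presentation. Ciita is the factor that switches on class II genes, H2-Aa, H2-Ab1 and H2-Eb1 encode the chains that present peptides to helper T cells, Cd74 is the chain that guards the groove, and Ctss cleaves it. Of 12 genes listed 10 passed the filter, and all 10 had both TPMCa libraries higher and a p below 0.05, with a median log2 fold change of -4.97 against 0.01 over all genes. The proximal promoters of H2-Aa (chr17:34287774-34288073, minus strand) and H2-Eb1 (chr17:34305617-34305916, plus strand) are shown, since they hold the Y box, an element known from class II promoters. Both come from RefSeq on GRCm38.p6 and run across the start of transcription, with the Y box CTGATTGG in capitals, its first base 51 and 62 bases before the start. Searched on both strands, these letters were present in 2 of the 7 class II promoters with a sequence (28.6%) and in 664 of 11850 promoters (5.6%), and a match is a description of the letters alone. The Nr5a1 half-site AAGGTCA, searched in the same way, was present in 0 of the 8 steroid synthesis promoters with a sequence, in 1 of the 7 class II promoters (14.3%), that of H2-Eb1, and in 397 of 11850 promoters (3.35%), which says only that these letters are not in these windows of the steroid genes.
H2-Aa promoter: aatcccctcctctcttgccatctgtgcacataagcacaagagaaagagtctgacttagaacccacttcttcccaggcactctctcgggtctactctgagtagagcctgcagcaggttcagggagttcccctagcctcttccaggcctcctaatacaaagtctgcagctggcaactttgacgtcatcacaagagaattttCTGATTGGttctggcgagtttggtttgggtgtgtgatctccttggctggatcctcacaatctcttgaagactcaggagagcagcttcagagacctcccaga
H2-Eb1 promoter: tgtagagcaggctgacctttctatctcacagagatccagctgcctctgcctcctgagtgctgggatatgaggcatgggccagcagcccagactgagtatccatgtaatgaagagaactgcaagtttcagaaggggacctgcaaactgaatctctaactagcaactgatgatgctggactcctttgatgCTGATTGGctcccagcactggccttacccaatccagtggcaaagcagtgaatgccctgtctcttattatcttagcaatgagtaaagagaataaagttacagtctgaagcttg

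Cd74 had 3.29 and 15.5 CPM in TPMR1 and 74.0 and 562 CPM in TPMCa (log2 fold change -5.09 ± 1.23, adjusted p = 0.364). Ciita had 0.503 and 0.667 CPM in TPMR1 and 4.18 and 32.9 CPM in TPMCa (-4.98 ± 1.16, adjusted p = 0.364). H2-Aa had 1.05 and 6.95 CPM in TPMR1 and 28.6 and 219 CPM in TPMCa, and H2-Eb1 0.929 and 5.73 CPM against 23.4 and 186 CPM. Replicate 2 of TPMCa was thus the highest of the 4 libraries for each of these genes, and TPMR1 the lowest. The TPM and TPK libraries lay above both TPMR1 libraries, with Cd74 from 116 to 411 CPM and Ciita from 2.90 to 8.57 CPM. Without replicate 2 of TPMCa 3 of the 10 genes had a p below 0.05 and the median was -2.59, while the libraries that remained still did not overlap for any of the 10. Class I genes were less far apart: of 17 tested, 6 had both TPMCa libraries higher and none both TPMR1 libraries, with a median of -0.85. H2-Q4, a class I gene of the Q region, had 31.1 and 26.3 CPM in TPMR1 and 80.1 and 174 CPM in TPMCa (-2.15 ± 0.40, adjusted p = 0.364), whereas H2-K1 and B2m, the shared light chain, overlapped. The class I median without replicate 2 of TPMCa was -0.01 and 3 in place of 5 members had a p below 0.05, and 9 did without replicate 1 of TPMCa. Class I genes have near copies, and how reads shared between them were counted is not given.

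Markers of blood-derived cells were higher in TPMCa as well. Of 22 macrophage genes, 18 had both TPMCa libraries higher and none both TPMR1 libraries, with a median log2 fold change of -2.34 and 17 at a p below 0.05. Csf1r, the receptor that macrophages depend on, had 25.7 and 52.4 CPM in TPMR1 and 93.9 and 348 CPM in TPMCa (-2.50 ± 0.71, adjusted p = 0.376). Laptm5, a lysosomal protein of blood cells, had 26.7 and 81.2 CPM in TPMR1 and 229 and 402 CPM in TPMCa, and the scavenger receptor Cd163 had 3.21 and 7.17 CPM against 18.9 and 70.9 CPM. The summed macrophage level was 2396 and 2022 CPM in TPMR1, 4075 and 8841 CPM in TPMCa, 3480 and 1838 CPM in TPM and 8425 and 5678 CPM in TPK, so that TPMR1 lay in the range of TPM. Of 31 lymphocyte genes 23 passed the filter, and 17 had both TPMCa libraries higher and none the reverse, with a median of -4.26 and 18 at a p below 0.05. The filter also keeps a gene that is high in TPMCa alone, so these lymphocyte counts are a description. Cd79b, a chain of the B cell receptor, had 4.05 and 27.0 CPM in TPMCa and 0.232 and 0.167 CPM in TPMR1. Cd3d, which defines T cells, had 1.52 and 3.39 CPM in TPMCa and 0.0387 and 0.222 CPM in TPMR1, at or near the floor. The summed lymphocyte level was 7.47 and 10.1 CPM in TPMR1 and 31.9 and 274 CPM in TPMCa. The medians were -1.25 for the macrophage and -1.42 for the lymphocyte genes without replicate 2 of TPMCa. In that setting 19 macrophage genes were higher in TPMCa and 1 in both TPMR1 libraries. The macrophage and lymphocyte medians were -2.01 and -4.38 without replicate 1 of TPMR1, and -3.23 and -5.4 without replicate 2 of TPMR1. The numbers of these genes with a p below 0.05 also moved with the library left out. The part that a different content of macrophages and B cells has in the class II difference was not tested.

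Neutrophil genes and chemokines had the same direction with less separation. Of 13 neutrophil genes tested, 5 had both TPMCa libraries higher and none both TPMR1 libraries, with a median of -2.81, but the defining S100a8 and S100a9 overlapped, with 4.65 and 145 CPM of S100a8 in TPMR1 and 825 and 76.0 CPM in TPMCa. The summed neutrophil level was 19.6 and 623 CPM in TPMR1 and 3053 and 371 CPM in TPMCa. A p below 0.05 was found for 3 neutrophil genes, for 10 without replicate 2 of TPMR1, and for 0 without replicate 1 of either model. The neutrophil median was -0.32 without replicate 1 of TPMCa and -6.02 without replicate 2 of TPMR1. Of 39 chemokines and receptors tested, 19 had both TPMCa libraries higher and none both TPMR1 libraries, with a median of -1.96. Ccr7, which guides lymphocytes and dendritic cells to lymph nodes, had 1.01 and 0.611 CPM in TPMR1 and 9.44 and 55.5 CPM in TPMCa (-5.31 ± 1.15, adjusted p = 0.364), and Ccl5, which draws T cells and monocytes, had 1.05 and 0.723 CPM against 6.52 and 25.9 CPM. Ccl5 in TPM and TPK, from 4.15 to 9.43 CPM, lay above both TPMR1 libraries. A p below 0.05 was found for 8 chemokine genes, all with TPMCa higher, a number that moved with the library left out. The chemokine median was -4.04 without replicate 2 of TPMR1, -2.38 without replicate 1 of TPMCa and -1.215 without replicate 2 of TPMCa. Tpsab1, a mast cell tryptase, had 20.9 and 6.12 CPM in TPMCa and 0.0774 and 0.278 CPM in TPMR1, but 55.0 and 0.286 CPM in TPM. Its unadjusted p was below 0.05 with all libraries and above it when any 1 of the 4 was left out, where the log2 fold change lay between -7.32 and -5.14. Interferon-stimulated genes went the other way on balance, with a median of 0.33 over 34 genes, though 2 had both TPMR1 libraries higher and 3 both TPMCa libraries, and the median turned to -0.45 without replicate 1 of TPMR1 and to -0.19 without replicate 1 of TPMCa. Bst2, the virus-tethering protein, had 199 and 191 CPM in TPMR1 and 55.8 and 81.6 CPM in TPMCa (1.5 ± 0.41, adjusted p = 0.376).

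**Figure D3:**
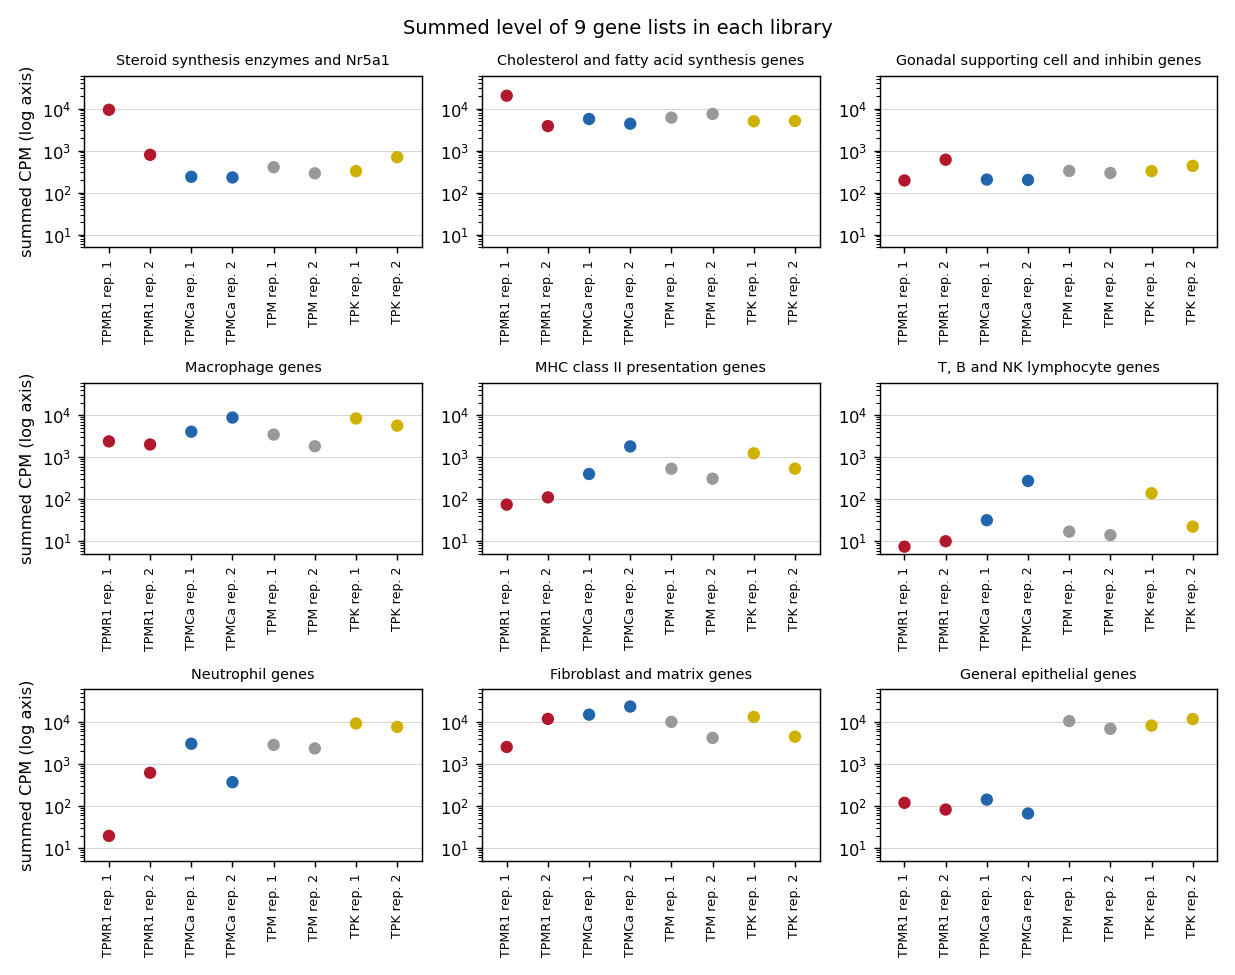
Summed level (y axis, CPM, log axis) of 9 gene lists in each of the 8 libraries (x axis), over the members that passed the filter on low counts. The steroid synthesis genes reached 9327 and 791 CPM in TPMR1 against 237 and 229 CPM in TPMCa, the MHC class II genes 74.9 and 111 CPM against 402 and 1818 CPM, and the general epithelial genes lay at or below 143 CPM in all 4 compared libraries.

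Fibroblast and matrix genes were on balance higher in TPMCa, and replicate 2 of TPMR1 held more of them than replicate 1. Of 30 genes, 18 had both TPMCa libraries higher and 2 both TPMR1 libraries, with a median of -1.59 and 8 at a p below 0.05. Postn, the matrix protein periostin, had 38.1 and 92.0 CPM in TPMR1 and 1269 and 819 CPM in TPMCa (log2 fold change -4.0 ± 0.81, adjusted p = 0.364). Pdgfra, which defines fibroblasts, had 13.9 and 35.5 CPM in TPMR1 and 113 and 226 CPM in TPMCa, and Col1a1, the main collagen of connective tissue, had 292 and 2286 CPM against 3261 and 6738 CPM. Col6a1 was 1 of the 2 genes higher in TPMR1, with 957 and 1017 CPM against 627 and 451 CPM (0.87 ± 0.57, adjusted p = 0.571). The summed fibroblast level was 2557 and 11935 CPM in TPMR1 and 15057 and 23467 CPM in TPMCa. Without replicate 2 of TPMR1 22 genes had a p below 0.05 and the median was -3.39, without replicate 1 of TPMR1 the median was -0.70, and without replicate 2 of TPMCa 4 genes had such a p. Of 25 mesenchymal transition genes, 11 had both TPMCa libraries higher and none both TPMR1 libraries, with a median of -0.70, which was -0.36 or -2.11 when replicate 1 or 2 of TPMR1 was left out. Lox, which crosslinks collagen, had 79.6 and 140 CPM in TPMR1 and 743 and 295 CPM in TPMCa, and the cadherin Cdh11 had 1.66 and 9.39 CPM against 54.3 and 47.4 CPM. Vim, the intermediate filament of mesenchyme, had 261 and 1692 CPM in TPMR1 and 2592 and 2287 CPM in TPMCa, without overlap (-1.32 ± 0.85, adjusted p = 0.565).

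Adipocyte genes formed a smaller group of this direction. Cidec, a protein of lipid droplets, had 9.75 and 72.3 CPM in TPMCa and 0.503 and 0 CPM in TPMR1, and Car3, a carbonic anhydrase abundant in fat and muscle, had 15.3 and 248 CPM against 0.813 and 0.611 CPM. Adipoq, which defines adipocytes, had 4.24 and 32.1 CPM in TPMCa and 0.503 and 0 CPM in TPMR1, whereas Plin1 and Fabp4 overlapped. Of 15 adipocyte genes tested, 8 had both TPMCa libraries higher and none both TPMR1 libraries. Their median was -1.46 and 7 had a p below 0.05, a number that depended on replicate 2 of each model. The summed adipocyte levels overlapped, at 733 and 228 CPM in TPMR1 and 432 and 1316 CPM in TPMCa. With replicate 1 as the only TPMR1 library, 5 genes were higher in TPMR1 and 9 in both TPMCa libraries, and the median was -2.04. With replicate 1 as the only TPMCa library, 4 genes were higher in both TPMR1 libraries and 8 in TPMCa, at a median of -1.25. Replicate 1 of TPK also held these genes, with 60.7 CPM of Car3, 20.3 CPM of Cidec and 16.6 CPM of Adipoq. In replicate 2 of TPK Car3 was higher still, at 139 CPM, while Cidec stood at 0.198 CPM. Cidec had an unadjusted p below 0.05 with all libraries, but not without replicate 2 of TPMR1 or replicate 2 of TPMCa, where its log2 fold change was -6.33 and -5.17. The part that fat tissue in a sample has in these levels was not tested.

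Of 16 catalytic and regulatory subunits of PI3K, 7 (43.8%, against 17.7% of all genes) had both TPMCa libraries higher and 3 (18.8%, the share of all genes) both TPMR1 libraries, with a median of -0.52. Pik3cg had 1.55 and 4.61 CPM in TPMR1 and 10.5 and 31.2 CPM in TPMCa (-2.76 ± 0.75, adjusted p = 0.372), Pik3cd 6.23 and 19.8 CPM against 31.9 and 88.5 CPM (-2.21 ± 0.68, adjusted p = 0.376), and Pik3r5 3.02 and 18.2 CPM against 33.0 and 71.2 CPM (-2.30 ± 0.83, adjusted p = 0.399). These 3 subunits are known from blood cells, and they were the only ones of the 16 with a p below 0.05, which none had without replicate 2 of TPMCa and 6 had without replicate 2 of TPMR1. Pik3cb, the broadly expressed p110-beta, had 16.1 and 17.7 CPM in TPMR1 and 24.3 and 27.8 CPM in TPMCa (log2 fold change -0.62 ± 0.30, adjusted p = 0.466), and Pik3r2, which encodes p85-beta, overlapped at 176 and 191 CPM against 152 and 227 CPM. Below PI3K, 11 of 36 genes tested had both TPMR1 libraries higher and 8 both TPMCa libraries, with a median of 0.13, and a p below 0.05 was found for 7 and 2. Irs1, the adaptor of the insulin receptor, had 73.2 and 41.7 CPM in TPMR1 and 17.4 and 10.4 CPM in TPMCa (2.05 ± 0.66, adjusted p = 0.38), whereas its relative Irs2 had 2.94 and 41.0 CPM against 82.6 and 77.3 CPM (-1.87 ± 1.02, adjusted p = 0.508). The lipid phosphatases Inppl1 and Inpp5j were higher in TPMR1, with 386 and 234 CPM of Inppl1 against 146 and 152 CPM, and Inpp5d, the form of blood cells, was higher in TPMCa, with 73.8 and 127 CPM against 12.8 and 36.0 CPM. Mtor had 221 and 80.2 CPM in TPMR1 and 66.6 and 67.7 CPM in TPMCa (1.17 ± 0.46, adjusted p = 0.415), and Deptor, which inhibits it, had 212 and 80.3 CPM against 62.8 and 41.2 CPM. Akt1 overlapped, and Akt2 had 189 and 142 CPM in TPMR1 and 126 and 112 CPM in TPMCa (0.47 ± 0.24, adjusted p = 0.48). The 7 genes became 2 without replicate 1 of TPMR1, 3 without either TPMCa replicate, and the 2 became 7 without replicate 2 of TPMR1.

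The lists of genes that respond to the pathway, to Myc or to growth had medians from -0.51 to -0.02, several of which moved widely without 1 library. Of 97 mTORC1-responsive genes, 11 had both TPMR1 libraries higher and 9 both TPMCa libraries, shares below those of all genes, with a median of -0.06 that turned to 0.25 without replicate 1 of TPMCa. Of 36 FOXO target genes, 9 (25%, against 17.7% of all genes) had both TPMCa libraries higher and 3 (8.33%, against 18.8%) both TPMR1 libraries, with a median of -0.46. Txnip, a FOXO-responsive inhibitor of glucose uptake, had 152 and 92.0 CPM in TPMR1 and 325 and 179 CPM in TPMCa (-1.05 ± 0.40, adjusted p = 0.408). Of 22 genes of the insulin and IGF axis, 6 (27.3%) had both TPMCa libraries higher and 3 (13.6%) both TPMR1 libraries. Their median of -0.51 turned to 0.22 without replicate 1 of TPMCa and was -1.595 without replicate 2 of TPMR1. Genes of ribosome biogenesis, a process Myc drives, had a median of -0.02, with 10 of 54 (18.5%, near the share of all genes) higher in both TPMR1 libraries and 3 (5.56%) in both TPMCa libraries. The 13 factors of the Myc and Mxd network had a median of -0.24, with 2 and 1 genes apart. Of 49 S phase genes, 17 had both TPMCa libraries higher and 1 both TPMR1 libraries, a share of 34.7% against 17.7% of all genes, but the median was -0.18 and no gene had a p below 0.05, as against 5 without replicate 2 of TPMR1. Mki67, the proliferation antigen, had 255 and 307 CPM in TPMR1 and 281 and 268 CPM in TPMCa, and among 55 G2/M genes 3 were apart in each direction, with a median of -0.07. Leaving out replicate 1 of TPMR1 gave 37 G2/M genes with TPMR1 higher and a median of 0.23, and leaving out replicate 2 of TPMR1 gave 44 with both TPMCa libraries higher, a median of -0.45 and 7 at a p below 0.05. Of 37 glycolysis and hypoxia genes, 2 and 3 were apart, and of 41 genes of the amino acid response 3 and 2, with medians of -0.07 and -0.11. Those medians were 0.50 and 0.27 without replicate 1 of TPMCa, and -0.52 and -0.28 without replicate 2 of TPMCa. Of 31 p53 targets, 10 (32.3%) had both TPMCa libraries higher and 5 (16.1%) both TPMR1 libraries, with a median of -0.16, and Cdkn1a, the cell cycle inhibitor p21, had 31.7 and 73.1 CPM in TPMR1 and 249 and 121 CPM in TPMCa (-1.82 ± 0.50, adjusted p = 0.376). The median of the p53 targets was -0.66 without replicate 2 of TPMR1, where 12 in place of 2 had a p below 0.05 with TPMCa higher, -0.52 without replicate 2 of TPMCa and -0.38 with the replicate block.

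Among the signaling lists, the Wnt genes had the most members apart. Of 57 Wnt ligands, receptors and feedback genes 48 passed the filter, and 21 had both TPMCa libraries higher, 6 both TPMR1 libraries, with a median of -0.67 and a p below 0.05 for 17 and 3. The receptor Fzd1 had 7.24 and 12.7 CPM in TPMR1 and 40.7 and 64.8 CPM in TPMCa (log2 fold change -2.41 ± 0.42, adjusted p = 0.364), and the secreted Dkk3 had 6.04 and 10.6 CPM against 41.9 and 33.2 CPM (-2.18 ± 0.38, adjusted p = 0.364). TPM and TPK held from 64.0 to 105 CPM of Fzd1 and from 31.4 to 43.6 CPM of Dkk3, above both TPMR1 libraries, so that TPMR1 was the model apart. Rspo2, a ligand of Lgr5, had 17.8 and 13.7 CPM in TPMCa, 0.387 and 1.22 CPM in TPMR1 and at most 0.171 CPM in TPM and TPK, so that ligand and receptor were both higher in TPMCa. Sfrp1, a secreted Wnt antagonist, had 7.51 and 3.5 CPM in TPMR1 and 17.0 and 72.8 CPM in TPMCa, and Lef1, a nuclear effector, had 0.155 and 0.167 CPM against 2.09 and 1.28 CPM. Lgr6, Fzd3 and Wnt10b were the genes higher in TPMR1 with a p below 0.05, at 7.63 and 13.7 CPM of Lgr6 against 2.28 and 2.89 CPM. Without replicate 1 of TPMR1 11 in place of 17 genes had a p below 0.05 with TPMCa higher. The median of the Wnt genes was -2.31 without replicate 2 of TPMR1.

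In the TGF-beta and BMP family 16 of 48 genes had both TPMCa libraries higher and 5 both TPMR1 libraries, with a median of -0.59. Bmp5 had 7.41 and 4.51 CPM in TPMCa and 0.116 and 0.278 CPM in TPMR1, and the BMP antagonist Grem1 had 13.8 and 2.06 CPM against 0.0774 and 0.333 CPM, opposite to Bmp7. Id2, a target of BMP signals, had 29.7 and 66.8 CPM in TPMR1 and 188 and 130 CPM in TPMCa (-1.72 ± 0.43, adjusted p = 0.364). The 8 genes of this family with a p below 0.05 and TPMCa higher were 23 without replicate 2 of TPMR1, 4 without replicate 1 of TPMR1 and 5 without replicate 1 of TPMCa. Of 26 Notch genes, 5 (19.2%, near the 17.7% of all genes) had both TPMCa libraries higher and 2 both TPMR1 libraries, with a median of -0.40 that turned to 0.24 without replicate 1 of TPMR1, and the target Hey1 had 1.51 and 9.45 CPM in TPMR1 and 55.0 and 24.8 CPM in TPMCa (-2.87 ± 0.84, adjusted p = 0.376). Of 34 FGF, PDGF and VEGF genes, 9 (26.5%) had both TPMCa libraries higher and 5 (14.7%) both TPMR1 libraries, with a median of -0.26 that turned to 0.16 without replicate 1 of TPMR1. Kit, a receptor of germ, blood and interstitial cells, and Kitl, its ligand, were both higher in TPMR1, at 77.9 and 49.6 CPM of Kit against 23.1 and 15.2 CPM (1.73 ± 0.44, adjusted p = 0.364) and 153 and 107 CPM of Kitl against 41.6 and 36.7 CPM (1.73 ± 0.78, adjusted p = 0.449). Of 30 EGFR and ERK feedback genes, 6 (20%, likewise near it) had both TPMCa libraries higher and 1 both TPMR1 libraries, with a median of -0.48, and Dusp6, which switches off ERK, had 10.7 and 44.1 CPM in TPMR1 and 85.2 and 74.5 CPM in TPMCa (-1.55 ± 0.63, adjusted p = 0.419). Only Dusp6 of these 30 had a p below 0.05, whereas 14 genes with TPMCa higher did without replicate 2 of TPMR1 and none with TPMCa higher did without replicate 1 of either model.

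General epithelial genes were low in all 4 libraries, and more of them were higher in both TPMCa libraries than in both TPMR1 libraries. Their summed levels overlapped, at 120 and 83.0 CPM in TPMR1 and 143 and 66.8 CPM in TPMCa. Cdh1, the adhesion protein E-cadherin, at chr8:106603351-106670246, had the smallest p of the epithelial list, with 0.271 and 0.5 CPM in TPMR1 and 6.97 and 5.34 CPM in TPMCa (log2 fold change -4.01 ± 0.38, adjusted p = 0.287). The same gene had between 698 and 792 CPM in TPM and TPK. Cldn4, a tight junction protein, had 0.0774 and 0.167 CPM in TPMR1 and 2.03 and 1.11 CPM in TPMCa, near the floor, against 313 to 484 CPM in TPM and TPK. Of 31 epithelial genes, 15 had both TPMCa libraries higher and 1 both TPMR1 libraries, with a median of -1.26. That 1 gene was Spint2, an inhibitor of membrane proteases, at 36.1 and 33.6 CPM in TPMR1 and 15.2 and 14.1 CPM in TPMCa (1.25 ± 0.23, adjusted p = 0.364). A p below 0.05 was found for 10 epithelial genes with TPMCa higher, and for 16 without replicate 2 of TPMR1, and the median was -0.56 without replicate 1 of TPMCa. Krt8 and Krt18, the keratins of simple epithelium, overlapped, with 1.55 and 5.84 CPM of Krt8 in TPMR1 and 26.1 and 4.51 CPM in TPMCa. The 36 squamous genes tested summed to 58.9 and 51.0 CPM in TPMR1 and 47.7 and 30.8 CPM in TPMCa, and 11 had both TPMCa libraries higher and 2 both TPMR1 libraries, with Krt5, the keratin of basal cells, at 0 in TPMR1 and at 0.0633 and 0.890 CPM in TPMCa. Of 24 genes of uterine glands tested, 6 had both TPMCa libraries higher and 1 both TPMR1 libraries, with a median of -0.70, and the defining Foxa2 was at 0 in TPMR1 and at 0.253 and 0.223 CPM in TPMCa.

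The remaining tissue lists showed no common direction. Of 16 smooth muscle genes, 4 had both TPMR1 libraries higher and none both TPMCa libraries, with a median of 0.82 that turned to -1.33 without replicate 2 of TPMR1, and Tpm2, a tropomyosin, had 304 and 160 CPM in TPMR1 and 91.8 and 64.8 CPM in TPMCa (1.57 ± 0.36, adjusted p = 0.364). Of 19 genes of uterine stroma and mesothelium, 3 had both TPMR1 libraries higher and 1 both TPMCa libraries, and the median of -0.26 turned to 0.56 without replicate 1 of TPMR1 and to 2.0 without replicate 1 of TPMCa. That 1 gene was Hand2, a factor of uterine stroma that progesterone induces, at 12.4 and 91.6 CPM in TPMCa and 0.232 and 0.889 CPM in TPMR1 (-6.55 ± 2.19, adjusted p = 0.389). The retinoic acid enzyme Aldh1a2 was higher in TPMR1, at 39.0 and 53 CPM against 11.0 and 3.90 CPM (2.63 ± 1.25, adjusted p = 0.458). Of 27 endothelial genes, 4 had both TPMCa libraries higher and 2 both TPMR1 libraries, with a median of -0.21 that turned to 0.45 without replicate 1 of TPMR1, and the defining Pecam1 and Cdh5 overlapped. Of 20 cartilage and bone genes, 4 had both TPMCa libraries higher, with a median of -1.04 that turned to 0.45 without replicate 1 of TPMCa, and the main cartilage genes were each high in 1 library, Acan at 837 CPM in replicate 1 of TPMR1 and Col2a1 at 197 CPM in replicate 1 of TPMCa. Of 21 neural genes, 4 and 5 were apart in favor of TPMR1 and TPMCa, and Tubb3, a neuronal tubulin, had 30.7 and 14.2 CPM in TPMR1 and 2.03 and 2.50 CPM in TPMCa (3.30 ± 1.23, adjusted p = 0.408). Of 21 skeletal muscle genes, 4 and 2 were apart, of 9 liver, kidney and gut genes 1 and 3, and of the 3 erythrocyte genes that passed the filter none.

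**Figure D4:**
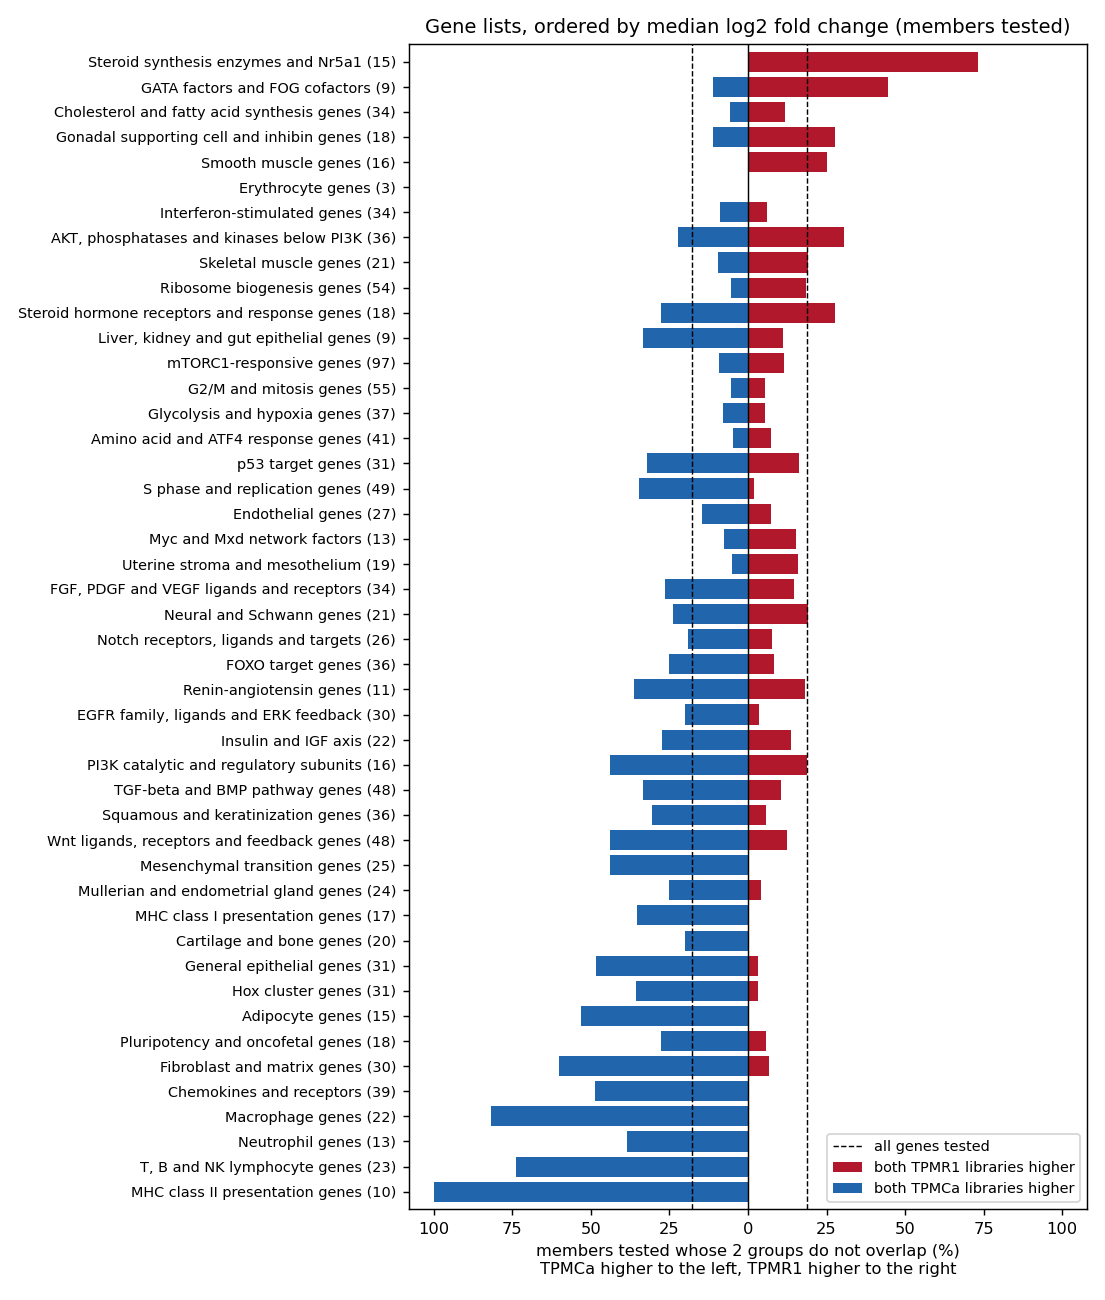
Share of the members tested (x axis, percent) with both TPMR1 libraries higher (right) or both TPMCa libraries higher (left) for each of 46 gene lists, ordered by median log2 fold change, with the number of members tested in brackets. Dashed lines mark the shares over all genes tested, 18.8% to the right and 17.7% to the left, and the steroid synthesis genes and the MHC class II genes stand at the ends of the order.

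For the genes with a gap of at least 1 log2 unit, the levels in TPM and TPK lay more often on the TPMCa side. The margin was wider in TPK than in TPM. These libraries had no part in the gap itself, only in the filter and the scaling. Of the 316 genes with a gap in favor of TPMR1, both TPM libraries lay below the midpoint of TPMR1 and TPMCa for 152 and above it for 102, and both TPK libraries below it for 179 and above it for 87. Of the 635 genes with a gap in favor of TPMCa, both TPM libraries lay below the midpoint for 247 and above it for 262, and both TPK libraries below it for 177 and above it for 309. Among the 316 genes 101 differed over 4-fold between the TPMR1 replicates, with replicate 1 higher for 93. Among the 635 genes 111 differed over 4-fold between the TPMCa replicates, with replicate 2 higher for 96, and 140 between the TPMR1 replicates, with replicate 1 higher for 13. Steroid genes such as Cyp11a1 and class II genes such as Cd74 are of these respective kinds.

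Genes of chromosome 7 were on balance higher in TPMR1. Of 1194 genes tested there, 384 (32.2%) had both TPMR1 libraries higher, against 18.8% of all genes, and 160 (13.4%) both TPMCa libraries, with a median log2 fold change of 0.24, the highest of the 20 chromosomes with genes tested. Relative to the mean of TPM, the median of chromosome 7 was 0.04 and 0.00 in TPMR1 but -0.21 and -0.14 in TPMCa, the libraries that departed. The median lay between 0.16 and 0.29 when any 1 of the 4 libraries was left out, and was 0.25 over genes with a mean log2 CPM of at least 4. Cdkn1c, higher in TPMCa, and Akt1s1, an mTORC1 inhibitor at 149 and 130 CPM in TPMR1 and 83.7 and 90.3 CPM in TPMCa, both lie on chromosome 7 and have opposite directions. Chromosome 12 had the smallest share of genes higher in TPMR1, 28 of 520 (5.38%). Its median was 0.03 in replicate 1 and -0.66 in replicate 2 of TPMR1, 0.10 and -0.38 in TPMCa, and -0.04 and -0.51 in TPK, so that 1 library of each of these models departed, and the log2 fold change of -0.13 was 0.10 without replicate 2 of TPMR1, 0.16 without replicate 1 of TPMCa, -0.58 without replicate 1 of TPMR1 and -0.28 without replicate 2 of TPMCa. Greb1, on chromosome 12, was higher in both TPMR1 libraries all the same. DNA copy number was not analysed here, and its part in these values was not tested.

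**Figure D5:**
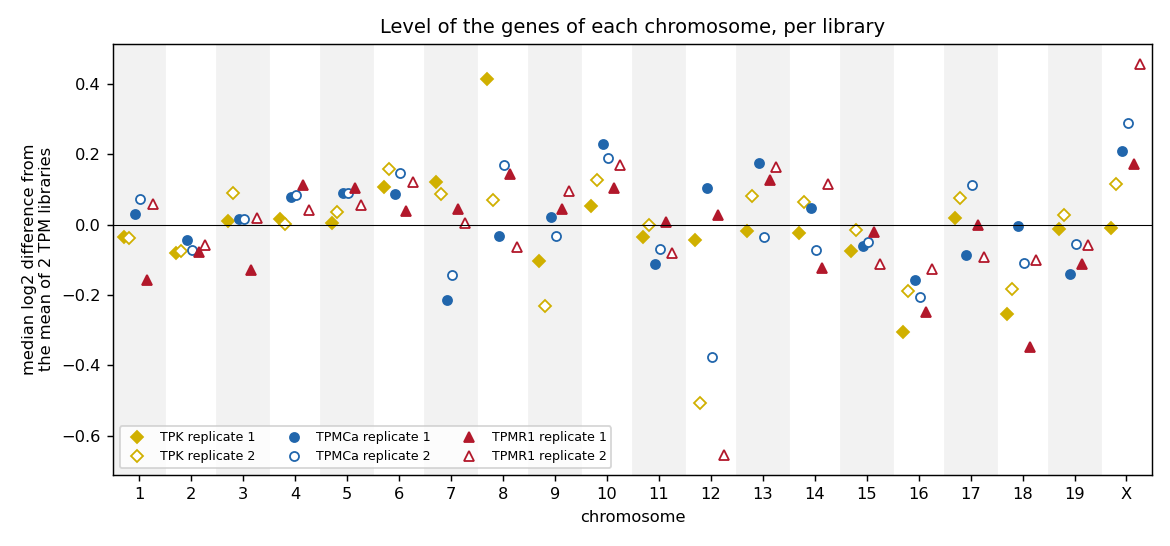
Median log2 difference of the genes of each chromosome (x axis) from the mean of the 2 TPM libraries (y axis, log2), for each TPMCa, TPMR1 and TPK library. On chromosome 7 both TPMCa libraries lie below the line, at -0.21 and -0.14, while replicate 2 of TPMR1, TPMCa and TPK lies low on chromosome 12.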

How the data were processed

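Bulk polyA RNA of 8 libraries was sequenced on an Illumina instrument, and the authors deposited whole-number counts for each of 24419 gene symbols, made from reads aligned to mm10 with STAR per the labels and the paper's methods. The counter, its annotation and its strand setting are not given in the sources used here, and 4109 genes had 0 counts in every library. A second deposited table, of counts normalized by DESeq2, was not used. Groups and replicate numbers came from the sample titles.

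The counts were filtered by filterByExpr, normalized by TMM and fitted with the quasi-likelihood test of edgeR 4.0.16 in R 4.3.3, with a term for the model over all 8 libraries (common dispersion 0.269) and p-values adjusted by the Benjamini-Hochberg method. The study's methods used DESeq2 with an unadjusted p of 0.05 and a log2 fold change beyond 1, and DESeq2 1.42.0 served as an alternative. Log2 CPM for gaps used a prior count of 2. Named genes were, in each direction, the 12 with the widest gap and the 5 with the smallest p among genes without overlap, with a p below 0.05 and a mean log2 CPM of at least 3 in the higher group, the engineered genes, and per list up to 4 members with the smallest p and defining markers; any other gene named was chosen after its values were seen. The members and the 46 gene lists were chosen with earlier results of these data known. Fold values are ratios of mean CPM. Where a group was at 0, the fold is a bound against 3 counts in each library, and where it held 1 to 3 counts the ratio carries an exact interval. The scripts were tested on simulated data. Alternatives were another test, 2 other normalizations, other filters and prior counts, the 4 libraries alone, a replicate term and leaving out each library. With 2 libraries per model no permutation test of a single gene can reach 0.05. Guide and codon were placed with GENCODE M21, and promoters are from RefSeq. Not every engineered gene is reported on.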

Additional observations from a re-analysis of the deposited data

How the results depend on the processing

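The number of genes with an unadjusted p below 0.05, 1867, was 864 in a fit of the 4 libraries alone, 1429 with a replicate block and between 1741 and 2615 under another test, normalization or filter. Leaving out 1 library gave between 1064 and 4401, the lowest without replicate 1 and the highest without replicate 2 of TPMR1. With a log2 fold change beyond 1 as well, 1670 genes became 831 with the 4 libraries alone and between 966 and 3998 without 1 library. The count of 0 genes at an adjusted p below 0.05 was 771 with DESeq2, 316 of them higher in TPMR1, and between 0 and 1383 without 1 library, with 1383 without replicate 2 of TPMR1. Genes without overlap numbered between 9803 and 12450 and genes with a gap of at least 1 between 1672 and 4778 when 1 library was left out, which follows in part from comparing 3 values in place of 4. The same numbers lay between 5430 and 6639 and between 798 and 1126 under the other alternatives. Without replicate 1 of TPMCa 22.2% of the genes with a p below 0.05 were higher in TPMR1, against 46.7% with all libraries and 38.1% with the replicate block, and the cause was not tested. The log2 fold change of Myc lay between -2.52 and 0.70 without 1 library, positive without replicate 1 of TPMCa, and that of Pik3r1 between -0.63 and 0.34, positive without replicate 2 of TPMR1. The sample titles give replicate numbers but no animal or day, and whether same-numbered libraries shared a day was not tested. The deviations of same-numbered TPMR1 and TPMCa libraries correlated at -0.04 over genes. The replicate block changed no call among the 34 genes named for their gap, smallest p or engineering. Genes named only through a list were not run with it. Medians of 29 of the 46 lists moved by more than their spread without replicate 2 of TPMR1. Genes below about 0.2 CPM are at the limit that the depth allows.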
